A study of Mus musculus with 4 samples.

Results

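The cells described here carried transcripts of Otx1, Wnt4 or Tlx3 in tumours of mice with an active form of Smoothened. A cell was chosen when it held 3 or more UMIs (unique molecular identifiers, each marking 1 captured transcript) summed over these 3 genes and fewer than 4 UMIs summed over Grin2b, Kcna1, Kcnk1 and Unc5c, 4 genes of maturing neurons. The rule chose 5119 of the 31150 cells kept, or 16.4%. The SG male library gave 586 of them, the YSG male library 1873, the SG female library 835 and the YSG female library 1825. Because the rule reads these 7 genes, their levels in the chosen cells are a description and support nothing else.

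The series asks how the function of Yap1 in immune evasion differs between the sexes. SG is the genotype fSMO-M2;hGFAPcre, in which Cre recombinase under the human GFAP promoter switches on SMO-M2, a constitutively active Smoothened. YSG is fYap1;fSMO-M2;hGFAPcre, which adds a conditional allele of Yap1 and is described by the submitters as rescued and sampled at the end point. All 4 groups (SG male, YSG male, SG female, YSG female) therefore carry fSMO-M2 and hGFAPcre, and each is 1 library from dissociated fresh tumour. The sources used here do not state ages, zygosity or how many animals stand behind a library, and the tissue is labelled only MB. A group of 1 library has no replicate error, so nothing was tested. The intervals printed cover counting error only, and genotype, animal and library cannot be told apart. Where 4 values follow each other, their order is SG male, YSG male, SG female, YSG female.

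OTX1 is a homeodomain transcription factor of the orthodenticle family, which patterns the anterior neural tube. Wnt4 encodes a secreted ligand that binds Frizzled receptors, and TLX3 is a homeodomain factor that helps set the identity of glutamatergic neurons. In the developing cerebellum, granule cell progenitors divide in response to Sonic hedgehog acting through Patched, Smoothened and the GLI factors. They then leave the cell cycle and switch on neuronal genes.

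Otx1 lies on the minus strand at chr11:21994764-22002897 (mm10, GENCODE M21), Wnt4 on the plus strand at chr4:137277489-137299726, and Tlx3 on the minus strand at chr11:33200752-33203589. The bases just upstream of a gene's start are shown for Wnt4 and Tlx3, the markers matched in RefSeq's GRCm38.p6 promoter table, so that the factors discussed below can be set against what is written there. The Wnt4 window is chr4:137277385-137277488 on the plus strand and the Tlx3 window chr11:33203590-33203838 on the minus strand, each printed 5′ to 3′ and ending just before the gene. Capitals mark the CCAAT box.
Wnt4: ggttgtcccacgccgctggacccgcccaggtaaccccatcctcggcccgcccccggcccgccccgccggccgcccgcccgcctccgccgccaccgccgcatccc
Tlx3: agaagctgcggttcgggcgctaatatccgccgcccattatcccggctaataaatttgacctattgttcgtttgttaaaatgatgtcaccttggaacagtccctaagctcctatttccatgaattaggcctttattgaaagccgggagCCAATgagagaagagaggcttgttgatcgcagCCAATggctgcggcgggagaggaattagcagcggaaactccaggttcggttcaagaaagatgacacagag
The Tlx3 window held the CCAAT box (CCAAT) at 102 and at 70 bases before its end, both on the printed strand. Neither window held the TEAD motif GGAATG, the GLI motif GACCACCCA or the E-box CAGCTG on either strand, and the Wnt4 window held no CCAAT box. Among 32851 promoter windows of 249 bases, 33.8% held a CCAAT box, 12.6% the TEAD motif, 0.222% the GLI motif and 13.0% the E-box. For windows of 104 bases the shares were 14.1%, 5.49%, 0.0974% and 5.13%. These matches describe letters only.

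The chosen cells were deeper than the other tumour cells in every library. Their median was 11891 UMIs in SG males, 8719 in YSG males, 14897 in SG females and 8949 in YSG females. The other tumour cells had medians of 6176, 5479.5, 7201 and 6069 UMIs in the same order. A threshold on UMIs favours deep cells, so depth moves with membership and its part in the results was not tested except where depth is held fixed below. The 4 libraries held 31533 barcodes in all and between 58478914 and 86906706 UMIs each. Pairs of libraries shared 9 to 21 kept barcodes, and 0 to 1 of the chosen ones.

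The share of chosen cells was higher in YSG than in SG in both sexes. It was 6.96% of kept cells in SG males (95% exact interval 6.43 to 7.53) and 23.8% (22.8 to 24.7) in YSG males, which is 3.41-fold higher (3.11 to 3.75). It was 10.9% in SG females (10.2 to 11.6) and 25.4% in YSG females (24.4 to 26.4), a fold of 2.33 (2.14 to 2.53). Between the SG libraries the share was lower in males, with a male over female ratio of 0.638 (0.573 to 0.710), and the male tumour cells were shallower too (medians of 6369 and 7631.5 UMIs). In YSG that ratio was 0.937 (0.878 to 1.0). The cells, and so the marker genes of the rule, were chosen with earlier results of these data known. The YSG over SG folds of the shares here and below are therefore a description and support nothing further.

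The difference between genotypes was present at every depth. Under 4000 UMIs few cells were chosen, and the YSG over SG folds were 4.59 (2.61 to 8.61) in males and 5.01 (2.1 to 14.5) in females. In cells of at least 4000 and under 8000 UMIs, 4.40% of SG male and 20.5% of YSG male cells were chosen, a fold of 4.65 (3.94 to 5.52). In females 6.23% and 20.9% were chosen, a fold of 3.36 (2.87 to 3.96). From 8000 to under 16000 UMIs the shares were 9.48% and 37.9% in males and 11.4% and 40.0% in females, folds of 3.99 (3.40 to 4.70) and 3.5 (3.02 to 4.06). At 16000 UMIs or more they were 21.5% and 51% in males and 27.5% and 47.9% in females, and the folds were smaller, at 2.38 (1.99 to 2.84) and 1.74 (1.5 to 2.03). The overall fold of 2.33 in females lies below those of both middle depth ranges.

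Thinning each tumour cell to 2000 UMIs put all cells at 1 depth, with the shallower 385 to 447 cells of each library left out. A UMI of any of the 3 genes was then present in 13.8% of SG male cells (998 of 7244) and 35.6% of YSG male cells (2394 of 6720), a fold of 2.59 (2.40 to 2.79). Females had 14.9% (996 of 6664) and 37.2% (2323 of 6244), a fold of 2.49 (2.31 to 2.68). Unthinned, 37.5%, 66.3%, 43.6% and 69.3% of tumour cells in SG and YSG males and in SG and YSG females held such a UMI.

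Free RNA in droplets gives UMIs in cells that do not make a gene, so the same share was taken in other cell types. Oligodendrocytes, called from 3 or more UMIs and 0.1% of UMIs in their marker list, had a UMI in 32 of 185 thinned cells (17.3%, interval 12.1 to 23.5) over the 4 libraries, leukocytes in 3 of 42 (7.14%) and endothelial cells in 4 of 30 (13.3%). Astroglia had one in 380 of 1702 cells (22.3%, 20.4 to 24.4), above both SG shares and below both YSG shares. These backgrounds pool SG and YSG libraries, and their median depths were 6879, 6048.5, 7179.5 and 5283 UMIs before thinning, against 6263 to 8014.5 in tumour cells. The 13.8% and 14.9% of SG tumour cells lie within the interval of these oligodendrocytes, so at this depth the SG shares cannot be told from that background, whereas both YSG shares lie above it. The same held for each gene, with a UMI of Otx1 in 4.32% of these oligodendrocytes (1.89 to 8.34), of Wnt4 in 4.86% (2.25 to 9.03) and of Tlx3 in 7.57% (4.2 to 12.4). With cells required to hold 1% of their UMIs in the other type's genes, a stricter rule chosen after the data were seen, 1 of 28 SG cells (3.57%, 0.0904 to 18.3) and 2 of 39 YSG cells (5.13%, 0.627 to 17.3) had a UMI. Their median depths were 6854.5 and 7488 UMIs, and these intervals include the SG shares as well.

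Each marker was found in more YSG than SG tumour cells, with the highest fold for Otx1. As the markers were chosen with earlier results of these data known, these folds too are a description only. In thinned tumour cells, Otx1 was found in 2.10% of SG male and 10.9% of YSG male cells and in 2.13% of SG female and 12.8% of YSG female cells, folds of 5.19 and 6.01. Tlx3 was found in 6.35% and 17.6% of male and 6.68% and 19.2% of female cells, folds of 2.77 and 2.88. Wnt4 was found in 5.49% and 13.6% of male cells and 6.87% and 11.8% of female cells, folds of 2.47 and 1.72. Wnt4 had the lowest fold of the 3 in both sexes, though in males its interval (2.19 to 2.79) overlapped that of Tlx3 (2.48 to 3.09).

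Levels are given in CPM, the UMIs of a gene summed over a set of cells and scaled to the same total for each set, which is not per length and so not compared between genes. Over all tumour cells, without the rule, Otx1 stood at 10.8 CPM in SG males, 58.3 in YSG males, 10.2 in SG females and 72.4 in YSG females. For males this made a fold of 5.42 (5.0 to 5.88) and for females one of 7.09 (6.58 to 7.65). Tlx3 stood at 34.5, 105, 36.0 and 117 CPM in the same order, folds of 3.06 (2.92 to 3.21) and 3.25 (3.11 to 3.40). Wnt4 stood at 33.0, 86.2, 38.7 and 88.8 CPM, folds of 2.61 (2.48 to 2.75) and 2.29 (2.19 to 2.40). The SG levels of each gene were close in the 2 sexes and the YSG levels of each lay above both.

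**Figure D1:**
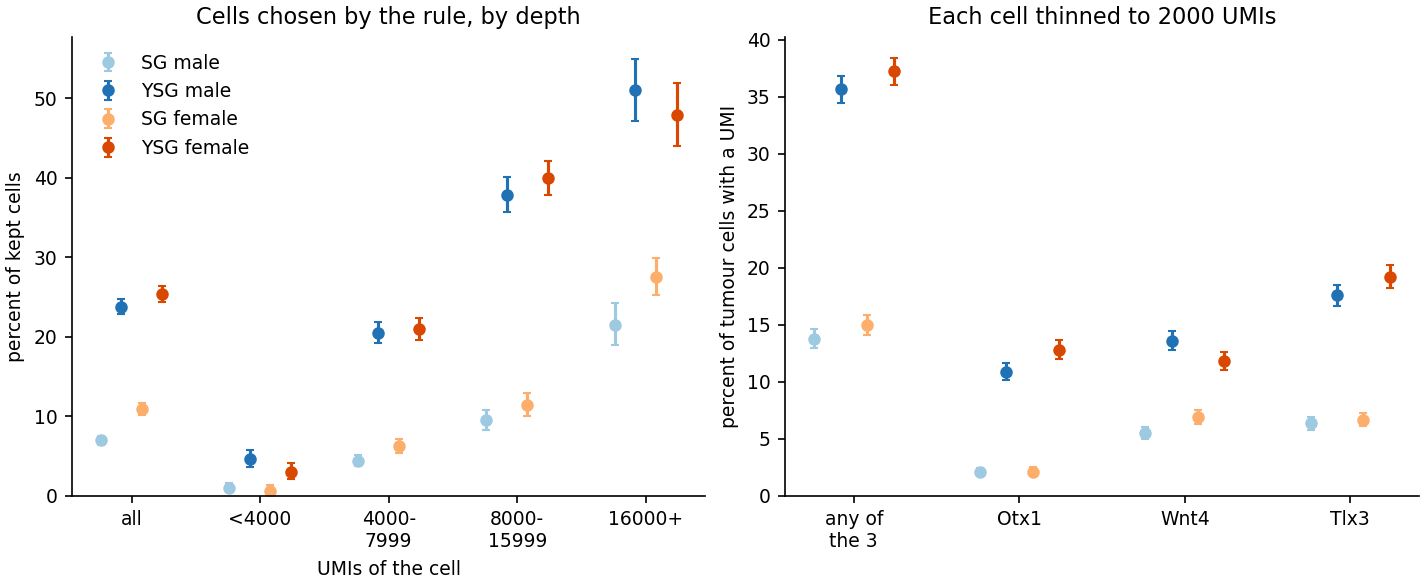
Left, percent of kept cells chosen by the rule, over all cells and by UMIs per cell, in the 4 libraries, with 95% exact intervals; right, percent of tumour cells with a UMI of any of the 3 genes, of Otx1, of Wnt4 and of Tlx3 after thinning to 2000 UMIs. Both YSG libraries lie above both SG libraries at every depth and for every marker (35.6% and 37.2% against 13.8% and 14.9% for any of the 3). The markers were chosen with earlier results of these data known.

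By the rule, the chosen cells held more of the markers and less of the maturing genes than the other tumour cells, and the values are given as a description. Otx1 stood at 28.8, 92.2, 19.7 and 111 CPM in the chosen cells of SG and YSG males and of SG and YSG females and at 8.19, 41.3, 7.82 and 52.3 in the other tumour cells. Wnt4 stood at 129, 180, 111 and 189 against 19.3, 39.2, 20.4 and 35.5, and Tlx3 at 98.6, 180, 81.3 and 197 against 25.2, 68.0, 24.6 and 74.5. The other tumour cells of YSG thus held more Otx1 than the chosen cells of SG. Of the maturing genes, Grin2b, a glutamate receptor subunit, stood at 7.71, 9.07, 5.63 and 5.73 CPM against 19.1, 28.6, 18.4 and 40.6. The potassium channel genes Kcna1 (0.435, 1.08, 0.232 and 3.21 against 2.39, 7.05, 2.69 and 35.1 CPM) and Kcnk1 (20.9, 50.6, 16.1 and 57.4 against 42.7, 126, 41.2 and 193) and the netrin receptor gene Unc5c (3.48, 4.44, 3.37 and 6.23 against 12.7, 17.1, 13.5 and 51.2) were also lower.

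Most chosen cells held 1 or a pair of the 3 genes. All 3 genes were detected together in 9.73% of chosen cells in SG males, 24.5% in YSG males, 10.7% in SG females and 30.6% in YSG females. A single marker gene made up all marker UMIs in 43.2%, 22.5%, 42.8% and 17.0%. Wnt4 had the most UMIs in 48.0% of SG male and 50.5% of SG female chosen cells, and in 34.5% and 33.8% of YSG male and YSG female ones. Otx1 had the most in 6.14%, 12.9%, 5.75% and 16.1% of cells. Of the chosen cells, a higher share was thus led by Otx1 and a lower share by Wnt4 in YSG, while Tlx3 led 37.0% to 40.6% in all 4 libraries. The number of cells led by Wnt4 was nonetheless higher in YSG, at 281, 646, 422 and 617 cells.

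Many cells lay at the edge of the rule. Exactly 3 marker UMIs were held by 51.5%, 36.0%, 42.2% and 29.3% of the chosen cells in SG and YSG males and in SG and YSG females. Just outside it, 666, 1047, 724 and 802 cells held 2 marker UMIs. The cells just inside had median depths of 10100, 7308, 12793 and 7842 UMIs and those just outside 9327.5, 6299, 10459.5 and 7119.5. Granule neuron differentiation genes summed to 7354, 10443, 6702 and 9967 CPM just inside and 7803, 10628, 7245 and 10482 just outside, so these sums were close on either side of the threshold. The limit of 4 UMIs on the maturing genes removed 46, 297, 102 and 408 cells, or 7.28%, 13.7%, 10.9% and 18.3% of the cells with 3 or more marker UMIs. On this side 30, 129, 31 and 149 cells held 3 such UMIs and stayed in, and 18, 100, 26 and 99 held 4 and did not.

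The label of a cell state was checked by asking whether 1 marker was higher where the other 2 were high. Tumour cells with fewer than 4 UMIs of the maturing genes were split by the UMIs of the other 2 markers, and the third was compared between 3 or more and 0. In SG males Otx1 stood at 13.0 against 10.8 CPM (fold 1.21, 0.949 to 1.52), Wnt4 at 37.2 against 33.7 (1.10, 0.920 to 1.31) and Tlx3 at 36.3 against 35.3 (1.03, 0.867 to 1.21). In SG females the folds were 1.09 (0.893 to 1.33) for Otx1, 0.921 (0.813 to 1.04) for Wnt4 and 0.924 (0.816 to 1.04) for Tlx3. All 6 of these intervals in SG include 1. Of the 6 SG comparisons of 1 or 2 UMIs with 0, 2 intervals excluded 1, in opposite directions, for Otx1 in SG females (1.26, 1.07 to 1.48) and for Tlx3 in SG males (0.868, 0.783 to 0.961). The SG libraries thus gave no steady rise of 1 marker with the level of the others.

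In YSG the third marker was higher where the other 2 were high, with larger folds in the female library. The Wnt4 difference in males was lost among cells of 5000 UMIs or more. YSG males had folds of 1.15 (1.05 to 1.27) for Otx1, 1.09 (1.0 to 1.17) for Wnt4 and 1.13 (1.05 to 1.21) for Tlx3. YSG females had 1.27 (1.16 to 1.38) for Otx1, 1.81 (1.67 to 1.98) for Wnt4, from 70.1 to 127 CPM, and 1.44 (1.34 to 1.54) for Tlx3. Among YSG male cells of 5000 UMIs or more the folds were 1.19 (1.07 to 1.32) for Otx1, 1.01 (0.930 to 1.10) for Wnt4 and 1.17 (1.08 to 1.27) for Tlx3. Among YSG female cells of that depth they were 1.23 (1.12 to 1.36), 1.59 (1.46 to 1.74) and 1.39 (1.29 to 1.49). With folds this near 1 in 3 of the 4 libraries, the 3 genes went together weakly or not at all there, and the cells are called Otx1 Wnt4 Tlx3 cells by their rule alone.

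**Figure D2:**
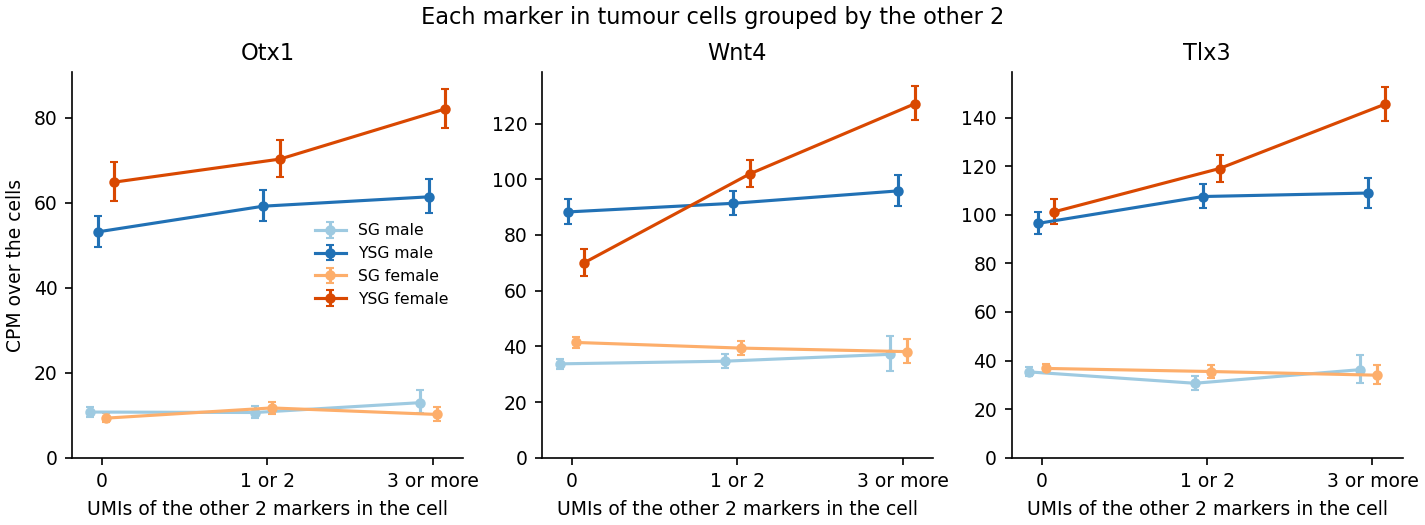
CPM of each marker in tumour cells with 0, 1 or 2, or 3 or more UMIs of the other 2 markers, by library, with 95% Poisson intervals. The lines are nearly flat in both SG libraries and rise in YSG females, where Wnt4 goes from 70.1 to 127 CPM.

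In genes outside the rule, chosen cells lay nearer to other chosen cells than the other tumour cells did. In a space of 30 principal components over 2000 variable genes, without the 7 genes of the rule, the 15 nearest neighbours of a chosen cell were chosen cells in 16.7% of cases in SG males, 45.4% in YSG males, 27.8% in SG females and 51.2% in YSG females. For the other tumour cells the shares were 7.67%, 22.5%, 12.3% and 22.3%. Among the 1 in 3 cells with the most UMIs the values were closer, with 20.7% against 14.0% in SG males, 51.4% against 34.3% in YSG males, 33.2% against 22.6% in SG females and 56.0% against 34.0% in YSG females. The share was therefore higher around chosen cells than around other tumour cells in each library, also among the deepest cells. The other tumour cells compared here still held maturing neurons, which the rule keeps out of the chosen cells. Genes of maturation outside the rule were not left out of the space. How much of the gap came from that exclusion was not tested, as no comparison was limited to cells meeting the same limit on the maturing genes. Chosen cells made up 7.16%, 24.7%, 11.4% and 26.4% of the tumour cells compared, and 14.2%, 41.5%, 22.8% and 43.3% of the deepest ones. Over 50% of the neighbours of a chosen cell were chosen in YSG females, and among the deepest cells of YSG males, but not in either SG library. As chosen cells were a larger part of the YSG libraries to begin with, these shares do not compare closeness between genotypes.

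Log2 ratios were taken on CPM with 1 added, for genes at 10 CPM or more on at least 1 side. No gene outside the rule was over 2-fold higher in the chosen cells than in other tumour cells in all 4 libraries, out of 8084 measured (percent called 0). Over 2-fold lower in all 4 was 1 of 8084 (0.0124%). By library, 7 genes in SG males (0.0822%), 0 in YSG males (0), 0 in SG females (0) and 7 in YSG females (0.0798%) were over 2-fold higher. Over 2-fold lower were 7 (0.0822%), 6 (0.0706%), 13 (0.152%) and 72 (0.821%). Smaller shifts were shared more widely, with 2206 genes higher by any amount in all 4 libraries (27.3%) and 1926 lower (23.8%). Past 0.5 on the log2 scale, 3 genes were higher (0.0371%) and 39 lower (0.482%). The chosen cells thus differed from the other tumour cells by many small shifts, and the larger ones were mostly downward.

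The gene past 2-fold in all 4 libraries was Pnoc (chr14:65400673-65425472, minus strand), which encodes the precursor of the neuropeptide nociceptin. Pnoc stood at 10.9, 7.79, 10.9 and 14.0 CPM in the chosen cells of SG and YSG males and of SG and YSG females and at 46.7, 29.7, 52.4 and 71.1 CPM in the other tumour cells. The log2 ratios were −2.01, −1.80, −2.17 and −2.26, and the chosen cells were lower in each library. The other tumour cells still hold maturing neurons, which the rule removed from the chosen ones. Against other tumour cells that met the same limit on the maturing genes, both at 5000 UMIs or more, Pnoc differed by −1.06, −0.67, −0.97 and −1.73, so the 2-fold difference no longer held in all 4. That comparison, with what are called matched cells below, was added after seeing the data. Both sides met the same floor of 5000 UMIs and the same limit on the maturing genes, but depth above the floor was not made equal.

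Among other genes on the low side, chosen after their values were seen, Cntn2 (contactin 2, an adhesion molecule of young granule neurons) stood at 86.0, 100, 69.6 and 79.8 CPM in the chosen cells and 167, 212, 166 and 278 in the other tumour cells. Its log2 ratios were −0.95, −1.07, −1.24 and −1.79, and against the matched cells −0.52, −0.39, −0.72 and −1.24. Elmo1, an adaptor in cell migration and engulfment, stood at 8.04, 14.4, 8.94 and 21.6 CPM against 19.5, 29.8, 19.7 and 66.3. Its log2 ratios were −1.18, −1.0, −1.06 and −1.57, and −0.60, −0.32, −0.35 and −0.71 against matched cells. Both kept their direction in all 4 libraries at a smaller size.

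On the high side, again chosen after their values were seen, Rprml (a relative of the cell-cycle regulator reprimo) had 39.7, 30.1, 40.6 and 70.2 CPM in the chosen cells and 24.1, 16.1, 25.7 and 40.8 in the other tumour cells. Its log2 ratios were 0.69, 0.86, 0.64 and 0.77, and 0.59, 0.91, 0.51 and 0.57 against matched cells. Hes1, a transcriptional repressor downstream of Notch, had 25.7, 14.5, 41.0 and 18.3 CPM against 17.8, 8.57, 28.7 and 7.61, log2 ratios of 0.51, 0.70, 0.50 and 1.16. Atoh1, the bHLH factor of granule cell progenitors, had 36.5, 49.1, 39.0 and 44.5 CPM against 26.7, 32.3, 26.7 and 25.9. Ccnd1, which encodes cyclin D1, had 451, 282, 527 and 453 CPM against 329, 198, 388 and 260. Sox2, a neural stem and progenitor factor, had 67.1, 28.4, 82.4 and 29.7 CPM against 50.6, 18.8, 61.5 and 20.2. These 5 genes were higher in the chosen cells of each library, by less than 2-fold except Hes1 in YSG females. Against matched cells Hes1 had log2 ratios of 0.34, 0.54, 0.37 and 0.87, Atoh1 0.40, 0.42, 0.48 and 0.41, Ccnd1 0.34, 0.34, 0.37 and 0.54, and Sox2 0.26, 0.40, 0.31 and 0.05, so none was past 2-fold and Sox2 was nearly level in YSG females.

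The ratios of Apoe, a lipid carrier made by glia and macrophages, changed when chosen cells carrying markers of other types were left out. Apoe had 92.8, 73.7, 72.9 and 35.2 CPM in the chosen cells and 45.6, 49.3, 38.0 and 23.0 in the other tumour cells, log2 ratios of 1.01, 0.57, 0.92 and 0.59. Without the 232 chosen cells assigned to another cell type its ratios were 0.03, −0.06, 0.48 and 0.28. The ratio was thus near 0 in both male libraries without those cells, and Apoe too was chosen after its values were seen.

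The chosen cells carried other types' transcripts at these levels. The other tumour cells hold no cell assigned to another type, whereas the chosen cells keep theirs, so part of any higher sum is set by construction. The oligodendrocyte list summed to 75.8, 75.6, 34.9 and 60.6 CPM in the chosen cells and 37.4, 69.6, 27.6 and 64.7 in other tumour cells, with the mature marker Opalin at 0 in 3 libraries. The astroglia list summed to 424, 430, 365 and 328 against 340, 354, 324 and 300 CPM, higher in each library. The fibroblast and mural list summed to 44.0 against 9.78 CPM in SG males, with 8 of 8 genes higher, and to 2.42 to 14.5 against 1.55 to 11.1 in the other libraries. The leukocyte list summed to 0.813 to 4.24 against 0.799 to 1.95 CPM, and Ptprc was at 0 in the chosen cells of all 4 libraries. Doublet scores above the limit of the highest 6%, which with tied scores was passed by 407, 435, 360 and 347 kept cells, were found in 10.9%, 8.76%, 8.98% and 5.75% of the chosen cells and 4.38%, 4.51%, 4.18% and 4.51% of the others. Cells assigned to another type made up 6.83%, 5.55%, 3.59% and 3.18% of the chosen cells and 9.38%, 9.07%, 7.86% and 6.98% of all kept cells. The part of other cell types and doublets in the remaining results was not tested beyond the values given.

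**Figure D3:**
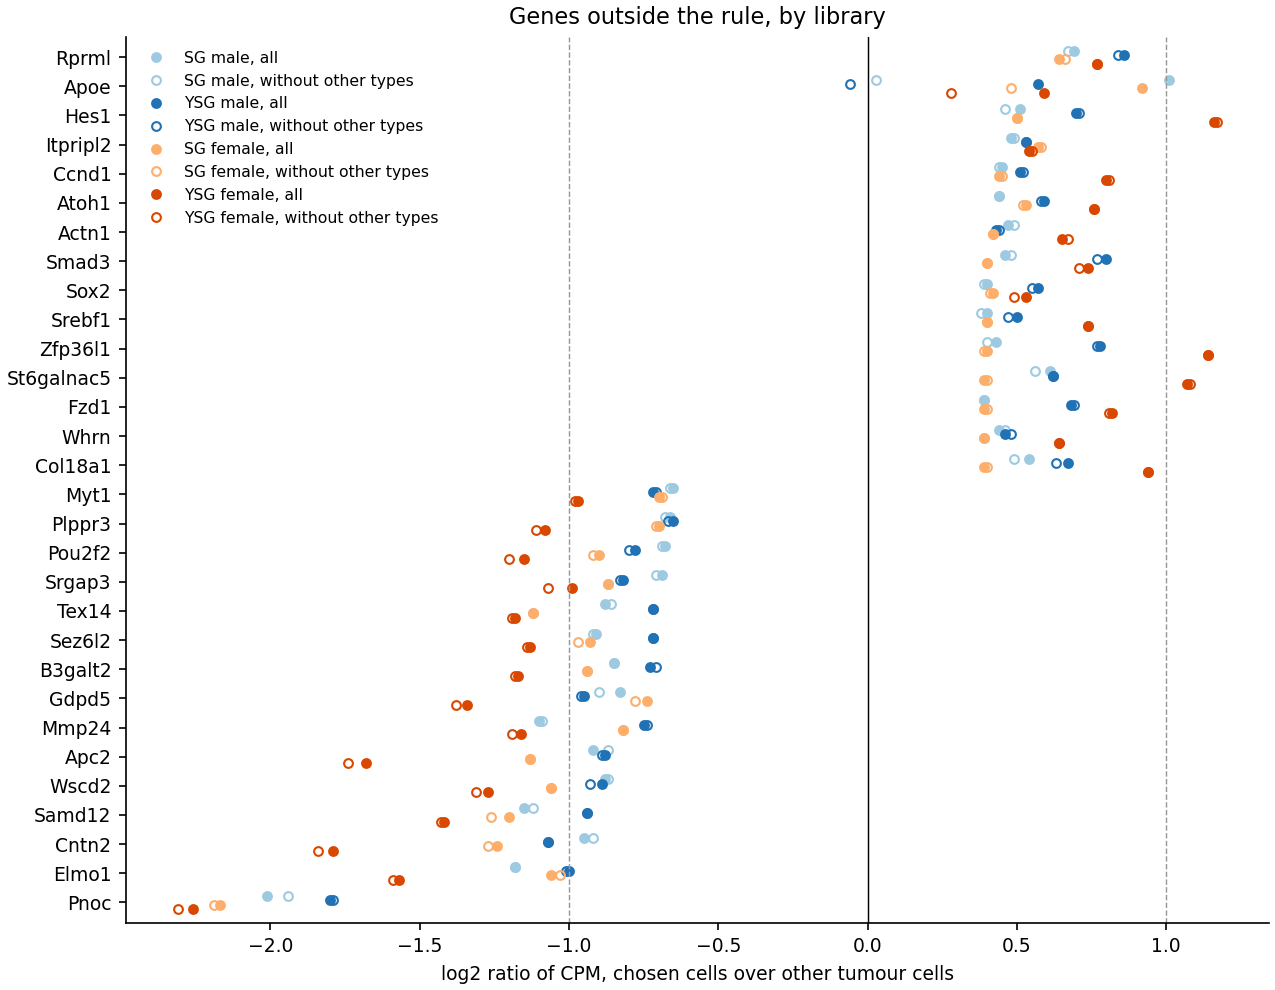
Log2 ratio of CPM, chosen cells over other tumour cells, in the 4 libraries for genes with the highest and the lowest ratio nearest to 0; filled points are all chosen cells, open points leave out those assigned to another cell type, and dashed lines mark 2-fold. Pnoc is the only gene with all 4 filled points past a line, and the open points of Apoe lie between −0.06 and 0.48.

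The hedgehog list was on the high side in the chosen cells. Of its 18 genes measured in all 4 libraries, 14 were higher in each and 2 lower, against 27.3% and 23.8% of all genes. Its median log2 ratio was 0.26, 0.21, 0.23 and 0.46 in SG and YSG males and in SG and YSG females, where the median of all genes was 0.01 in each. Gli1, a transcription factor and target of the pathway, had ratios of 0.45, 0.25, 0.26 and 0.59, and Ptch1, the receptor, 0.27, 0.32, 0.33 and 0.54. Hhip, which binds the ligand, had 0.30, 0.43, 0.34 and 0.67. Against matched cells 11 of 18 were higher in all 4 and 0 lower, where 22.0% and 13.5% of all genes were. These shares of all genes are the background for the counts of the other lists below.

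In the Wnt list, which leaves out Wnt4, 10 of 24 genes were higher in all 4 libraries and 6 lower, beside 27.3% and 23.8% of all genes. Its medians were 0.05, 0.06, 0.06 and 0.04. The receptor gene Fzd1 had 102, 50.5, 130 and 51.8 CPM in the chosen cells and 77.5, 31.2, 99.1 and 28.8 in the other tumour cells. Wls, which carries Wnt proteins to the cell surface, had log2 ratios of 0.43, 0.52, 0.36 and 0.72. The nuclear factors Tcf7l1 (0.40, 0.44, 0.29 and 0.63) and Tcf7l2 (0.31, 0.38, 0.25 and 0.47) were also higher. The ligand gene Wnt3 was lower, with −0.72, −0.76, −0.69 and −1.31, and so was Apc, part of the complex that degrades beta-catenin, with −0.25, −0.30, −0.30 and −0.54. The list therefore held genes on both sides, and none was past 2-fold in all 4 libraries.

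In the homeobox list, which leaves out Otx1 and Tlx3, 4 of 22 genes were higher and 4 lower in all 4 libraries. Of all genes 27.3% were higher and 23.8% lower. Its medians were 0.03, 0.04, 0.01 and −0.07, close to those of all genes. Pou3f2, a neural POU factor, had log2 ratios of 0.17, 0.31, 0.22 and 0.35. Lhx1, a LIM homeodomain factor, had −0.40, −0.44, −0.51 and −0.45. The list thus held as many genes lower as higher.

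Cell cycle genes were higher and neuronal genes lower. Of 27 S phase genes, 23 were higher in all 4 libraries and 0 lower, beside 27.3% and 23.8% of all genes. Their medians were 0.20, 0.14, 0.16 and 0.46. Examples are Mcm6, a helicase subunit (0.25, 0.28, 0.26 and 0.58), and Ung, a uracil glycosylase (0.34, 0.19, 0.29 and 0.64). Of 30 G2 and M genes, 20 were higher and 0 lower, among them Top2a, which untangles DNA (0.20, 0.17, 0.18 and 0.44). Of 33 granule neuron differentiation genes, 29 were lower and 1 higher, with medians of −0.23, −0.23, −0.34 and −0.54. Stmn2, a microtubule regulator of growing axons, had −0.70, −0.53, −1.0 and −0.87, and the bHLH gene Neurod1 −0.39, −0.50, −0.47 and −0.90. The 1 gene higher was Etv1, a transcription factor of maturing granule cells, at 0.22, 0.38, 0.30 and 0.33.

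These cell cycle counts moved with the comparison cells. Against matched cells of 5000 UMIs or more, 3 of 27 S phase genes were higher and 0 lower, and 0 of 30 G2 and M genes were higher and 2 lower. Of 31 differentiation genes, 20 were lower and 2 higher. With the floor of 5000 UMIs alone, 15 of 27 S phase and 4 of 30 G2 and M genes were higher. There 27 of 32 differentiation genes were lower, where 22.9% of all genes were higher and 19.3% lower. So few cell cycle genes were higher against cells that met the same depth floor and the same limit on the maturing genes. Over 50% of the differentiation genes were lower in either comparison. The rule takes maturing cells out of the chosen cells alone, which by construction sets part of the unmatched difference.

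Progenitor, matrix and YAP and TAZ genes were on the high side in both comparisons. Over all genes 27.3% were higher in all 4 libraries and 23.8% lower, and the shares against matched cells are those given with the hedgehog list. Of 13 neural stem and glial progenitor genes, 8 were higher in all 4 libraries and 1 lower, and 8 and 0 against matched cells. Nes, an intermediate filament of progenitors, had 0.42, 0.41, 0.33 and 0.57, and the receptor gene Notch1 0.40, 0.79, 0.50 and 0.94. Id4, an inhibitor of bHLH factors, went the other way at −0.94, −0.69, −0.84 and −1.50. Of 10 extracellular matrix genes, 8 were higher and 1 lower, and 8 and 0 against matched cells. Col4a1, a basement membrane collagen, had 0.50, 0.88, 0.37 and 0.90. Of 12 YAP and TAZ partners and targets, 7 were higher and 1 lower in both comparisons, with medians of 0.15, 0.22, 0.10 and 0.29.

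Genes of the immediate early and stress list, which also holds heat shock proteins and their co-chaperones, were lower. Of 17 genes, 14 were lower in all 4 libraries and 2 higher, beside 23.8% and 27.3% of all genes. Against matched cells the counts were 12 and 1, with the shares of all genes given at the hedgehog list. Fos, an AP-1 subunit, had −0.31, −0.60, −0.75 and −0.85, and the stress factor Atf3 −0.42, −0.58, −0.64 and −0.53. Of 17 ion channel and receptor genes, 11 were lower and 2 higher. Against matched cells 1 of 16 was lower and 1 higher, below the share of all genes in both directions. Chrna3, a nicotinic receptor subunit, had −0.68, −0.43, −0.71 and −0.46. Of 12 glycolysis genes, 8 were higher and 2 lower.

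The cells led by Wnt4 and those led by Tlx3 differed past 2-fold in few genes. By any amount in all 4 libraries, 1198 of 8079 genes were higher in the cells led by Wnt4 and 992 in those led by Tlx3. Past 2-fold in all 4 libraries, 1 of 8079 genes was higher in the cells led by Wnt4 (0.0124%) and 0 in those led by Tlx3 (0). That gene was Apoe, at 125, 112, 110 and 54.0 CPM against 52.2, 54.9, 41.0 and 20.8. Without cells assigned to another type its log2 ratios were −0.12, 0.34, 0.90 and 0.87, so it no longer stood out in males. Srebf1, a regulator of lipid synthesis chosen after its values were seen, had 0.86, 1.12, 0.82 and 0.94, and 0.85, 1.09, 0.78 and 0.95 without those cells. Of the mitotic genes, also chosen after their values were seen, Ccnb1 (−0.41, −0.48, −0.74 and −0.50) and Hmmr (−0.35, −0.63, −0.71 and −0.40) were higher in the cells led by Tlx3.

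Between cells led by Otx1 and cells led by Wnt4, 0 of 8135 genes passed 2-fold in all 4 libraries in either direction (percent called 0). By any amount in all 4, 1228 were higher in the cells led by Otx1 and 1079 in those led by Wnt4. Dusp1, Nr4a2 and Col4a1 were chosen after their values were seen. Dusp1, a phosphatase induced by growth signals, stood at 78.1, 55.4, 31.3 and 34.5 CPM in the cells led by Otx1 and 26.4, 24.7, 16.7 and 15.4 in those led by Wnt4. Nr4a2, an orphan nuclear receptor, had log2 ratios of 0.84, 1.01, 0.81 and 1.12. Col4a1 stood at 130, 59.1, 183 and 54.3 CPM in the cells led by Otx1 and 203, 120, 259 and 93.7 in those led by Wnt4. Against the cells led by Tlx3, 0 of 8039 genes passed 2-fold (0), and by any amount 924 were higher and 683 lower in all 4 libraries. Dusp1 had 1.47, 0.71, 0.52 and 0.42 in that comparison. The cells led by Otx1 thus had more Dusp1 than both others in each of the 4 libraries. Dusp1 was picked for ratios of the same sign in all 4, so that agreement supports nothing further. The cells led by Otx1 numbered 36, 241, 48 and 293 and held 42, 151, 34 and 110 UMIs of Dusp1.

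The chosen cells were then compared between genotypes. Yap1, the gene that YSG targets, gave 37 UMIs in the chosen SG male cells, 5 in YSG males, 73 in SG females and 0 in YSG females, or 4.02, 0.246, 4.24 and 0 CPM. It was lower in both YSG libraries, in the direction of their label, but the sources used here do not say where the deleted part lies relative to the 3' reads. Its paralogue Wwtr1, which encodes TAZ, stood at 26.2, 8.48, 30.9 and 11.4 CPM. Smo stood at 61.4, 61.1, 62.5 and 60.9 CPM, nearly the same in all 4. The EYFP feature, present in the reference, was detected at 36.9, 53.4, 45.5 and 31.1 CPM in the chosen cells and 35.6, 50.2, 42.9 and 27.8 in other tumour cells.

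Across genotypes, 73 of 8531 genes were over 2-fold higher in YSG than in SG chosen cells in both sexes (0.856%) and 105 were over 2-fold lower (1.23%). In males alone 142 of 8661 were higher (1.64%) and 168 lower (1.94%). In females 186 of 8791 were higher (2.12%) and 179 lower (2.04%). Over 2-fold higher in 1 sex and over 2-fold lower in the other were 6 (0.0703%). By any amount in both sexes, 2722 were higher (31.9%) and 3211 lower (37.6%). These counts compare 2 pairs of libraries, each without replicates, and no library is in both pairs. Whether the pairs are otherwise independent is not known, as the sources used here do not describe the animals behind them.

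The highest ratio belonged to Mndal, which belongs to the p200 genes induced by interferon. It had 0 UMIs in the chosen cells of both SG libraries, 926 in YSG males and 1792 in YSG females (45.7 and 90.0 CPM). Against a floor of 3 UMIs per library it was at least 140-fold higher in males and at least 517-fold higher in females. The family has near-identical members, so which copy these reads come from is uncertain. Trf, which encodes the iron carrier transferrin, had 2.61, 21.1, 2.09 and 30.5 CPM by library, log2 ratios of 2.61 and 3.35.

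Several named genes on the higher side encode neuronal proteins. Myt1l, a neuronal zinc finger factor, had 12.7, 81.0, 7.61 and 80.4 CPM, log2 ratios of 2.58 and 3.24, and a fold in females of 10.6 (8.84 to 12.7). Camk4, a calcium-dependent kinase, had 2.39, 15.3, 2.67 and 17.1 CPM. Caln1, a calmodulin relative, had 4.67, 34.4, 3.60 and 20.5 CPM. The YSG values lay several-fold above both SG values for each of these. Among channel genes, Cacna1e, a calcium channel subunit, had 2.50, 17.9, 3.54 and 24.3 CPM. The potassium channel gene Kcnj6 had 8.47, 38.2, 8.07 and 41.4 CPM. Rnaset2b (1.85, 10.3, 2.67 and 20.5 CPM) has a near-identical copy and is uncertain, and Samd12 (11.7, 43.5, 8.65 and 30.9) and Phactr3 (3.37, 13.2, 2.03 and 13.0) were also higher in both YSG libraries.

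Pdlim3 and Igf2bp1 were among the genes with the lowest ratios. Pdlim3, an actin-associated LIM protein, had 137 CPM in SG males, 1.73 in YSG males, 168 in SG females and 2.06 in YSG females, 79.5-fold and 81.6-fold lower in YSG. Igf2bp1, a fetal RNA-binding protein, had 25.5, 0.641, 30.1 and 0.954 CPM, and Hmga2, a fetal chromatin protein, 21.4, 1.33, 34.8 and 1.76. Each of these was under 3 CPM in both YSG libraries. Cavin1, a coat protein of caveolae, had 90.8, 10.2, 106 and 11.4 CPM, and Grb10, an imprinted adaptor of growth factor receptors, 80.4, 13.0, 101 and 6.83. Des, which encodes desmin, had 16.3, 2.02, 26.6 and 2.56 CPM, and Flnc, an actin crosslinker, 145, 25.6, 174 and 37.1. Col5a2, a fibrillar collagen, had 56.3, 8.04, 64.2 and 6.68 CPM, and Runx1, a blood and progenitor transcription factor, 19.99, 3.06, 36.1 and 4.42. Sema3c (19.4, 2.02, 16.4 and 2.41 CPM) and Tgfb1i1 (26.9, 3.94, 27.1 and 4.27) were also lower in both YSG libraries.

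**Figure D4:**
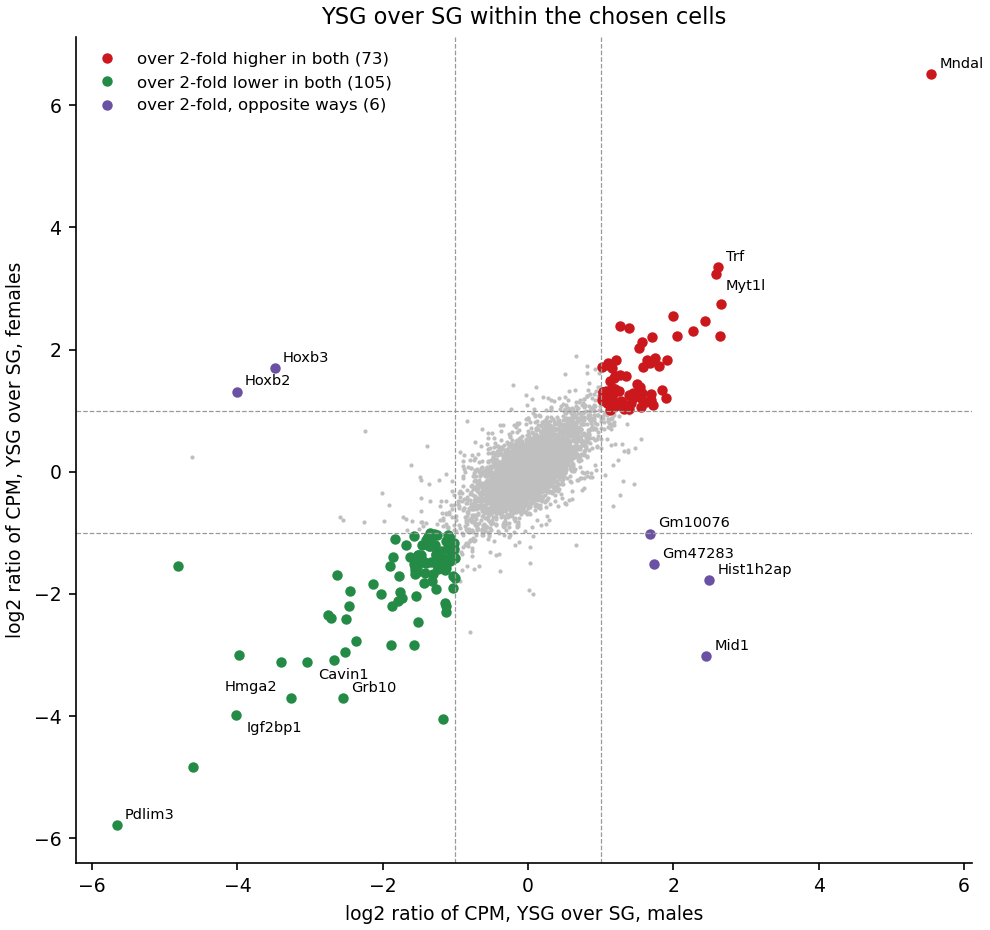
Log2 ratio of CPM, YSG over SG, within the chosen cells, with males on the x axis and females on the y axis, 1 point per gene; dashed lines mark 2-fold. Coloured points are the 73 genes higher and 105 lower in both sexes and the 6 that went opposite ways, and Mndal and Pdlim3 lie at the ends.

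These differences were found in the other tumour cells as well. Of the 73 genes, 56 were also over 2-fold higher in YSG in both sexes among the other tumour cells, and of the 105, 95 were also over 2-fold lower. All of them had the same sign there. Between chosen and other tumour cells, 0 of 8417 genes differed by more than 1 in their log2 ratio in either sex. Mndal had log2 ratios of 5.42 and 6.52 in the other tumour cells against 5.54 and 6.51 in the chosen ones, and Pdlim3 −5.62 and −5.87 against −5.66 and −5.79. The 2 sets of cells come from the same libraries, so they share whatever separates those libraries.

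By list, granule neuron differentiation genes had 7 of 34 over 2-fold higher in YSG in both sexes and 0 lower, beside 0.856% and 1.23% of all genes. Their median log2 ratios were 0.56 (males) and 0.51 (females), where all genes had −0.02 in both. The 7 were Neurod6, Stmn2, Stmn4, Gap43, Myt1l, Camk4 and Cadps2, and Stmn2 had 1.10 and 1.76. Ion channels and receptors had 6 of 22 higher and 0 lower, with medians of 0.52 and 0.64. In the other tumour cells the medians of these 2 lists were 0.56 and 0.71, and 0.70 and 0.85. The chosen YSG cells thus differed from the chosen SG cells in neuronal genes. The rule's limit on the maturing genes did not make their levels equal. They summed to 32.5, 65.2, 25.4 and 72.5 CPM in the chosen cells of the 4 libraries. The chosen SG cells were also deeper, so the same UMI limit was stricter there.

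Progenitor, matrix and YAP genes went the other way. Neural stem and glial progenitor genes had 3 of 15 lower and 1 higher (Id1), with medians of −0.71 and −0.95. The 3 lower were Sox2 (−1.21 and −1.44), Fabp7 (−1.13 and −2.19), a fatty acid binding protein of radial glia, and Cd44, a hyaluronan receptor. Extracellular matrix genes had 4 of 13 lower and 0 higher, with Sparc, a collagen-binding protein, at −1.57 and −2.84. YAP and TAZ partners and targets had 2 of 15 lower, Wwtr1 (−1.52 and −1.36) and the membrane repair gene Myof, and 1 higher, Foxf2. The same lists that were on the high side in chosen cells within a library were therefore on the low side in YSG chosen cells, whose share was higher.

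The lists around the markers had few genes past 2-fold, read here beside 0.856% of all genes higher and 1.23% lower in both sexes. In the Wnt list 1 of 26 genes was over 2-fold higher in both sexes, Sfrp1, a secreted Wnt inhibitor (1.13 and 1.17), and 2 were lower, Tcf7l1 (−1.10 and −1.04) and Tcf7l2 (−1.07 and −1.30). In the hedgehog list 1 of 20 was higher, again Sfrp1, and 2 were lower, Gli3 (−1.33 and −1.48) and the growth factor gene Igf2 (−4.81 and −1.54). In the homeobox list 0 of 26 were higher and 2 lower, Zfhx3 and Pou3f4. S phase, G2 and M phase, immediate early and stress, and glycolysis lists had 0 genes past 2-fold in both sexes in either direction, and the 5 measured class I MHC genes had 0.

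**Figure D5:**
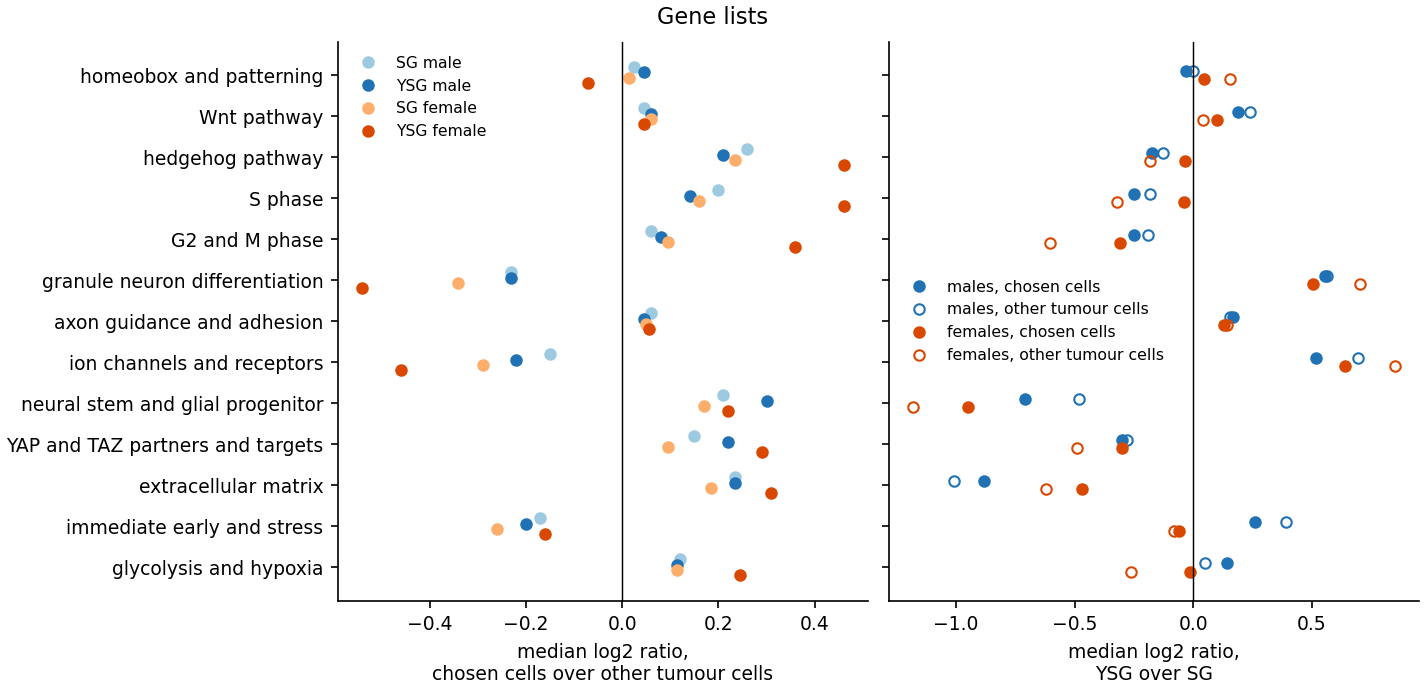
Median log2 ratio of each gene list; left, chosen cells over other tumour cells in the 4 libraries; right, YSG over SG in the chosen cells (filled) and in the other tumour cells (open) of each sex. Differentiation genes lie left of 0 in the left panel and right of 0 in the right panel, and stem and matrix genes do the reverse.

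The chosen cells overlapped other sets made with rules of the same kind. Cells with 3 or more UMIs over Hmga2, Cavin1 and Cav1 made up 33.4% of the chosen cells in SG males, 2.46% in YSG males, 48.0% in SG females and 3.89% in YSG females. Of all kept cells that set made up 16.9%, 1.29%, 26.6% and 2.38%. Its rule also favours deep cells, with median depths of 13437, 14565.5, 16051 and 14375 UMIs, and the part of depth in the overlap was not tested. Seen from that set, 13.8%, 45.1%, 19.7% and 41.5% of its cells were chosen, beside 6.96%, 23.8%, 10.9% and 25.4% of all kept cells. Cells with 2 or more UMIs over Hoxb2 and Hoxb3 made up 9.73%, 0%, 11.6% and 15% of the chosen cells. Of all kept cells they made up 4.45%, 0%, 5.55% and 9.55%. In the libraries that held such cells 15.2%, 22.8% and 39.9% of them were chosen. Among cells with 4 or more UMIs of the maturing genes, 12.5%, 41.7%, 22.3% and 29.8% held 3 or more marker UMIs and were left out only by the exclusion. Of all kept cells 7.51%, 27.5%, 12.2% and 31.0% held 3 or more marker UMIs. The share holding the markers was thus higher in YSG in these sets too, except that the YSG male library held no Hoxb2 Hoxb3 cell.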

How the data were processed

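Single cells of 4 libraries were captured with the 10x Chromium 3' V3 kit and sequenced on DNBseq, per the labels' protocols. The deposited matrices hold UMI counts made with Cell Ranger 5.0.1 per the file headers, and mm10 is named in the submitters' processing notes. The sources used here do not state counting settings or doublet removal. Barcodes with at least 500 UMIs, 300 genes and at most 20% mitochondrial UMIs were kept. No doublets were removed: Scrublet (scanpy 1.11.5) set no usable threshold in 3 libraries, so leaving out scores above the limit of the highest 6% is an alternative. Cells with 3 or more UMIs and 0.1% of UMIs in a list of another cell type were assigned to it, and the rest were called tumour cells.

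UMIs were summed per library over the chosen cells and over the other tumour cells and scaled to the same total for each sum (CPM). Ratios are log2 of CPM with 1 added, for genes at 10 CPM or more on at least 1 side, and a gene is counted past a 2-fold change. Each group is 1 library, so nothing was tested and no p-value exists. Intervals are 95% exact (Clopper-Pearson for shares, binomial for folds, Poisson for CPM) and cover counting error only. Genes named are the 7 of the rule, the highest 12 and lowest 12 past 2-fold in both sexes, those past 2-fold in all 4 libraries (up to 20 higher and 15 lower), and genes of the lists. A few others, said to be so, were chosen after their values were seen. Genes without a name were counted only, and some genes that meet the rule are not reported here. The cells and lists were chosen with earlier results of these data known. Tools were Python 3.11.15, numpy 2.4.6, scipy 1.17.1 and scikit-learn 1.9.0. The ratio code was tested on simulated data. Alternatives changed the UMI thresholds, cell filters, low-value filters, scaling and comparison cells.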

Additional observations from a re-analysis of the deposited data

Results flagged for a closer look

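Within the chosen cells, 6 of 8531 genes (0.0703%) went over 2-fold opposite ways between the genotypes in males and in females. The difference between the sexes was not tested, since each sex has 1 library per genotype. Mid1 had log2 ratios of YSG over SG of 2.45 in males and −3.02 in females, on 6.41 CPM in SG males against 39.5 in YSG males, and 38.5 in SG females against 3.87 in YSG females. Hist1h2ap, a histone gene with near-identical copies and so uncertain, had 2.49 and −1.77. Gm47283 had 1.74 and −1.51, and Gm10076 had 1.67 and −1.01. Hoxb2 had −4.01 and 1.31, from 15.1, 0, 13.2 and 34.3 CPM, and Hoxb3 had −3.49 and 1.69, from 10.2, 0, 7.49 and 26.5 CPM. The other tumour cells had the same signs, for example 2.46 and −3.10 for Mid1 and −3.72 and 0.99 for Hoxb2.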

How the results depend on the processing

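No paired analysis was possible because each group is 1 library, and for the same reason no replicate could be left out. The YSG over SG fold of the share was 2.49 in males and 1.79 in females with 2 marker UMIs, 4.51 and 2.84 with 4, and 5.93 and 5.61 with 5 marker UMIs per 10000. In females it was 2.54 with no exclusion by maturing genes and 2.09 with fewer than 2 UMIs of them. The fold of cells with a marker UMI was 2.39 and 2.22 at 4000 UMIs and 1.77 and 1.59 with no thinning. In YSG males 49.3% of neighbours were chosen cells at 5000 UMIs or more, where chosen cells were 32.6% of the cells compared. Genes lower in chosen cells in all 4 libraries numbered 5 without cells above the doublet score limit, 4 with 4 marker UMIs, and 2 with the stricter cell filter, no low filter, median ratio scaling, all other kept cells as comparison, or chosen cells of other types left out. They numbered 0 at 30 CPM, and 0 at 5000 UMIs or more with the same limit on the maturing genes. The number of genes higher was 0 under each of these alternatives. Genes higher and lower in YSG numbered 39 and 68 with 5 CPM added, 33 and 55 at 30 CPM, and 142 and 197 with no low filter. Apoe changed direction: at 0.57 in the library nearest to 0, it was at −0.79 against all other kept cells, −0.06 there without chosen cells of other types, and its ratio between cells led by Wnt4 and by Tlx3 in SG males went from 1.25 to −0.12 without them. Of the single-gene values, 391 of chosen over other cells held and 29 moved, and 192 and 24 of YSG over SG. A value was counted as held when its log2 ratio changed by no more than a fixed step. Many ratios of chosen over other cells were small, so a held value can still have lost much of its size.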
